A study of Sus scrofa with 6 samples.

Results

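The positive and negative limbs of the circadian clock were examined in pig loin muscle through 9 genes, 3 activators (ARNTL, NPAS2 and CLOCK) and 6 repressors (PER1, PER2, PER3, CRY1, CRY2 and CIART), out of 25322 genes in the deposited table. The members were chosen by gene symbol. The table gave 8 of them under that symbol, with 1 row each. PER2 was found by its Ensembl gene ID (ENSSSCG00000016338), which carries no symbol in the deposited table. All 9 passed the filter on low counts, as did 13209 genes in all.

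RNA was sequenced from the longissimus dorsi, the long muscle of the back, in 3 libraries of Wei pigs and 3 of Yorkshire pigs. Wei pigs had free access to commercial feed and water and went to slaughter at 90 kg. Yorkshire pigs are described as raised in a comparable way, with no slaughter weight stated. The labels state no transgene, treatment, age or sex. Nor do they state that each library came from its own animal, and every p-value therefore rests on library-to-library spread, which may be partly technical. Wei replicate 2 had 6901 counts on the Y chromosome, against 9 and 14 in Wei replicates 1 and 3. It is thus unlikely to share an animal with them. Whether the other libraries share animals is not known. The hour of slaughter is not stated either, so breed and hour cannot be told apart in any result below.

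The clock is a feedback loop of transcription. ARNTL, also called BMAL1, pairs with CLOCK or with its paralogue NPAS2, and the pair binds E-box elements in the genes of the PER and CRY proteins, which then return to the nucleus and inhibit the pair. In the skeletal muscle of laboratory rodents the transcripts of these genes rise and fall over the day, with ARNTL and NPAS2 high when PER2 and PER3 are low. CIART, also called CHRONO, is an E-box target whose product binds ARNTL and represses it.

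Total counts ranged from 15285197 to 27096747 per library. The skeletal muscle markers ACTA1, CKM, MYLPF, DES and TTN together made up between 70092 and 138680 CPM (counts per 1e+06 library counts, after TMM scaling), lowest in Wei replicate 1, and 0 of these 5 passed edgeR's quasi-likelihood test (0 at an unadjusted p under 0.05, 0 by DESeq2 and 0 by limma voom). ACTA1 was the largest part of this sum, from 34102 CPM in Wei replicate 1 to 92748 CPM in Yorkshire replicate 1. Wei replicate 2 stood apart in having 6901 counts on the Y chromosome against at most 14 in any other library. By these counts Wei replicate 2 reads as male and no other library does, so sex is not balanced. Wei replicate 2 also had the highest PER1 and CIART values of the 6 libraries. The values of PER1, CRY2, CIART and the paralogue ratios are also given without it. The part of sex in these values was not tested.

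Of the clock members that passed the test, the activators were higher and the repressors lower in Wei muscle. ARNTL and NPAS2 rose in Wei muscle, about 3.06-fold and 7.74-fold, and PER2 and PER3 fell, to 0.283 and 0.306 of the Yorkshire level. CLOCK, CRY1, CRY2, PER1 and CIART did not pass the test. Thus 4 of 9 members passed edgeR's quasi-likelihood test at a Benjamini-Hochberg adjusted p of 0.05, 2 in each direction. Of all genes tested, 5.08% passed, 2.73% higher and 2.35% lower in Wei. CPM values of the breeds did not overlap for 6 of 9 members, 4 higher and 2 lower in Wei, against 29.6% of all genes (14.3% higher, 15.3% lower).

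**Figure D1:**
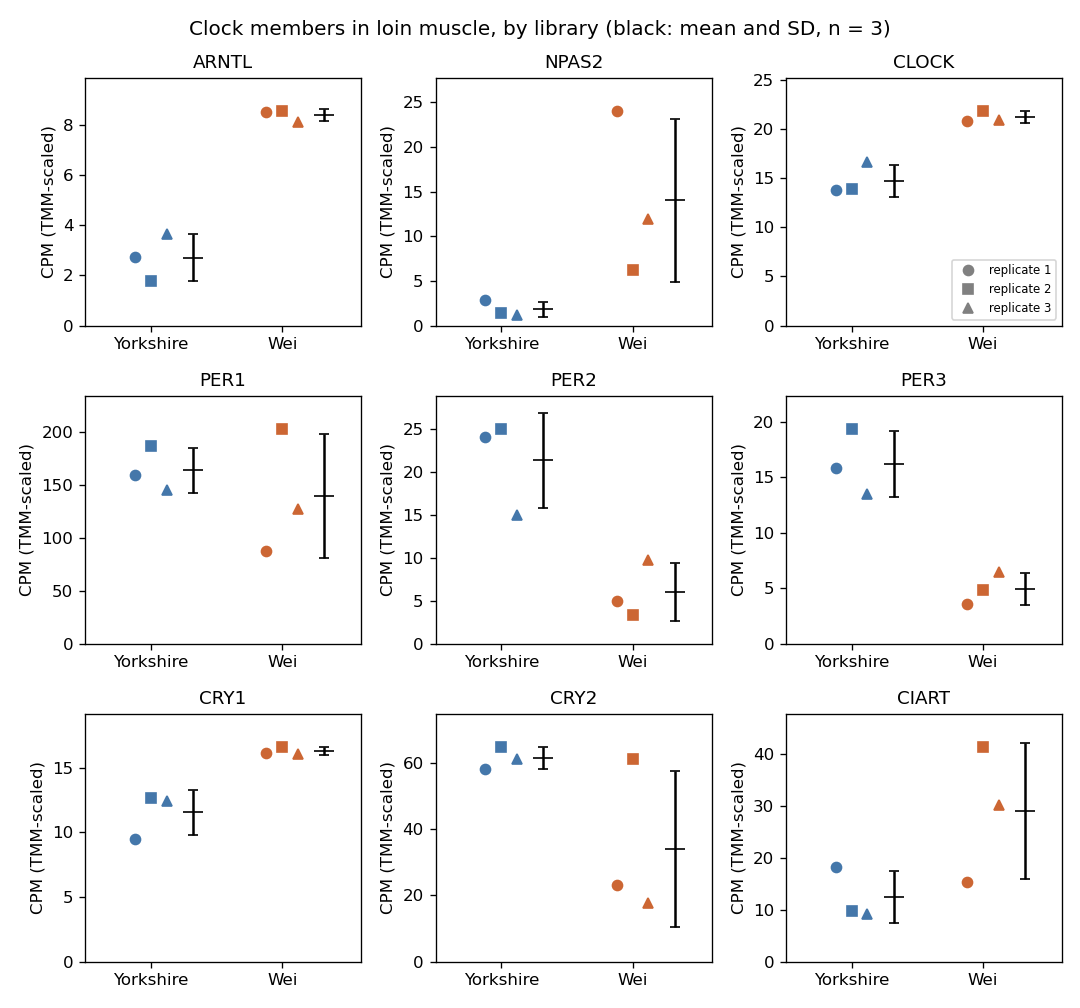
Expression of each clock member as TMM-scaled CPM (vertical axes, from 0) in 3 Yorkshire and 3 Wei libraries; marker shape gives the replicate and the black bar the mean and SD. ARNTL, NPAS2, CLOCK and CRY1 lie higher in every Wei library, PER2 and PER3 lower, and Wei replicate 2 (square) lies at the Yorkshire level for CRY2 and above it for PER1 and CIART.

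ARNTL, the shared partner of CLOCK and NPAS2 at E-box elements, lies on chromosome 2 at 49291904 to 49316939 of Sscrofa10.2 (ENSSSCG00000013396). It was measured at 2.74, 1.77 and 3.64 CPM in Yorkshire replicates 1 to 3 and at 8.52, 8.58 and 8.12 CPM in Wei replicates 1 to 3. The Wei values spanned 1.06-fold and the Yorkshire values 2.06-fold, and the lowest Wei library exceeded the highest Yorkshire library. The log2 fold change was 1.61 ± 0.26 (SE; edgeR's quasi-likelihood test, adjusted p = 0.0182). The Yorkshire values rest on 70, 32 and 100 reads. For the lowest, Yorkshire replicate 2, the exact Poisson 95% interval of the level was 1.21 to 2.50 CPM, which covers counting error only and does not reach any Wei value. Without Yorkshire replicate 2 the log2 fold change was 1.40 and the adjusted p 0.0546, and with any other library left out ARNTL passed.

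The gene is represented more than once in the deposited table. After a gap of 697 bases the ARNTL row is followed by an unnamed row, ENSSSCG00000013397 (chromosome 2, 49317637 to 49340140), which the table of gene names calls BMAL1, a synonym of ARNTL in RefSeq. Its counts come from the same libraries but from a separate gene model. They gave 2.38, 1.99 and 3.13 CPM in Yorkshire and 9.05, 8.19 and 8.76 CPM in Wei. Its order of libraries in Yorkshire was the same as in the ARNTL row. The log2 fold change was 1.78 ± 0.21 (edgeR's quasi-likelihood test, adjusted p = 0.00838), and it passed with each library left out in turn, with adjusted p between 0.0152 and 0.0390. With the rows summed, a choice made after the data were seen, the level was 5.12, 3.76 and 6.78 CPM in Yorkshire and 17.6, 16.8 and 16.9 CPM in Wei. The summed rows differed by 1.7 ± 0.21 on the log2 scale (edgeR's quasi-likelihood test, adjusted p = 0.00957). The rows held 644 and 641 reads over the 6 libraries.

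NPAS2, the paralogue that can stand in for CLOCK as the partner of ARNTL, lies on chromosome 3 at 55844996 to 56034828. It was measured at 2.81, 1.44 and 1.17 CPM in Yorkshire and at 24.1, 6.18 and 11.9 CPM in Wei. Every Wei library was higher than every Yorkshire library, but the Wei libraries differed 3.90-fold among themselves, the widest spread within a breed of the 9 members. Wei exceeded Yorkshire by 2.95 ± 0.53 on the log2 scale (edgeR's quasi-likelihood test, adjusted p = 0.0254). Its 95% interval ran from 1.75 to 4.16. The adjusted p was 0.104 without Yorkshire replicate 2, 0.0804 without Yorkshire replicate 3 and 0.0579 without Wei replicate 3, and the log2 fold change stayed between 2.33 and 3.45 over the 6 fits that left out a library, lowest without Wei replicate 1.

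CLOCK, the usual partner of ARNTL and a histone acetyltransferase, lies on chromosome 8 at 58659342 to 58698260. Its level was 13.8, 13.9 and 16.7 CPM in Yorkshire and 20.9, 21.9 and 20.9 CPM in Wei. The breeds did not overlap, and the libraries within a breed differed by at most 1.21-fold. CLOCK had a log2 fold change of 0.52 ± 0.14, with a 95% interval of 0.21 to 0.83, and missed the threshold with edgeR's quasi-likelihood test (adjusted p = 0.0662). DESeq2 gave an adjusted p of 0.0339 and was the only 1 of 7 other settings in which CLOCK passed. In the 6 fits that left out a library CLOCK passed in 0, with edgeR's quasi-likelihood adjusted p between 0.0971 and 0.198.

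The PER proteins are the limiting part of the repressor complex. PER2 (chromosome 15, 152264832 to 152286818) was measured at 24.1, 25.1 and 15.0 CPM in Yorkshire and at 4.91, 3.32 and 9.74 CPM in Wei. All 3 Wei libraries lay under the lowest Yorkshire library, and Wei replicate 3 came nearest to it. The log2 fold change was -1.82 ± 0.37 (edgeR's quasi-likelihood test, adjusted p = 0.0361). PER2 was the least stable of the 4 calls. It passed only without Wei replicate 3, where the log2 fold change was -2.37, and the adjusted p was 0.0762, 0.122 and 0.0579 when Yorkshire replicate 1, 2 or 3 was omitted, and 0.10 and 0.0618 when Wei replicate 1 or 2 was.

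PER3, a further PER paralogue, lies on an unplaced scaffold of the build (34090 to 91114, ENSSSCG00000028572). Its level was 15.9, 19.4 and 13.5 CPM in Yorkshire and 3.55, 4.81 and 6.46 CPM in Wei. The breeds did not overlap, and the highest Wei library stood under the lowest Yorkshire one. PER3 had a log2 fold change of -1.71 ± 0.24, with a 95% interval of -2.27 to -1.15 (edgeR's quasi-likelihood test, adjusted p = 0.0122). PER3 missed the threshold only without Yorkshire replicate 2 (-1.57, adjusted p = 0.0590).

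PER1, a PER gene that glucocorticoid and cyclic AMP signals also induce, showed no such separation. It lies on chromosome 12 at 55836902 to 55851908 and was measured at 159, 186 and 144 CPM in Yorkshire and at 87.4, 203 and 127 CPM in Wei. Wei replicate 2 was the highest of the 6 libraries and Wei replicates 1 and 3 were the lowest. PER1 had a log2 fold change of -0.23 ± 0.27, with a 95% interval of -0.86 to 0.39 (edgeR's quasi-likelihood test, adjusted p = 0.647). It was -0.60 without Wei replicate 2 and 0.019 without Wei replicate 1, and missed the threshold in both.

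CRY1 and CRY2, the cryptochromes, bind PER proteins and inhibit the activator pair directly. Their estimates differed in sign, and neither passed the test. CRY1 (chromosome 5, 13127782 to 13215788) was measured at 9.5, 12.7 and 12.5 CPM in Yorkshire and at 16.2, 16.6 and 16.1 CPM in Wei. The Wei libraries spanned 1.03-fold, the narrowest spread within a breed of any member, and the breeds did not overlap. CRY1 had a log2 fold change of 0.50 ± 0.16, with a 95% interval of 0.14 to 0.86, and it missed the threshold (edgeR's quasi-likelihood test, adjusted p = 0.104).

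CRY2 (chromosome 2, 17893141 to 17916392) was measured at 58.3, 65.0 and 61.1 CPM in Yorkshire and at 23.2, 61.1 and 17.6 CPM in Wei. Wei replicate 2 lay inside the Yorkshire range, and the other Wei libraries lay far under it. Over all 6 libraries the log2 fold change was -0.86 ± 0.40 and missed the threshold (edgeR's quasi-likelihood test, adjusted p = 0.239). Without Wei replicate 2 it was -1.58 and passed, with an adjusted p of 0.00885. In the other 5 fits that left out a library CRY2 did not pass. The Wei levels of replicates 1 to 3 rest on 392, 940 and 360 reads, and the exact Poisson 95% intervals are 21.0 to 25.6, 57.3 to 65.1 and 15.8 to 19.5 CPM.

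CIART, the repressor that is itself a strong E-box target, lies on chromosome 4 at 108088711 to 108091789. It was measured at 18.3, 9.84 and 9.25 CPM in Yorkshire and at 15.3, 41.5 and 30.2 CPM in Wei. Yorkshire replicate 1 exceeded Wei replicate 1, so the breeds overlapped, and Wei replicate 2 was again the highest library. The log2 fold change was 1.21 ± 0.38, with a 95% interval of 0.34 to 2.09 (edgeR's quasi-likelihood test, adjusted p = 0.105). Without Wei replicate 2 the estimate was 0.88 (edgeR's quasi-likelihood adjusted p = 0.228). DESeq2 gave an adjusted p of 0.0117 over all 6 libraries and was the only 1 of 7 other settings in which CIART passed. CIART passed in 0 of the 6 fits that left out a library. Among the repressors, CIART and CRY1 thus had positive estimates and the PER genes and CRY2 negative ones.

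**Figure D2:**
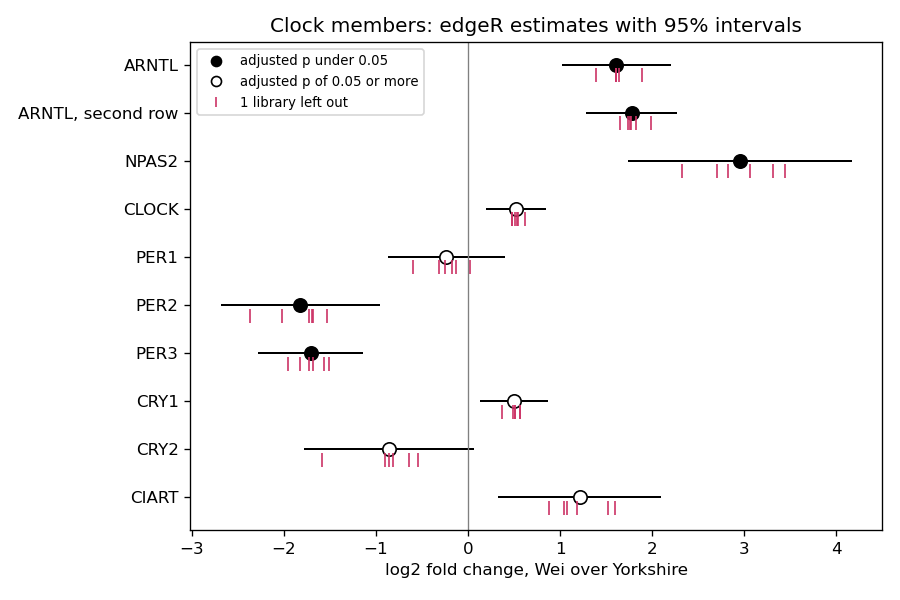
Log2 fold change, Wei over Yorkshire (horizontal axis), of each clock member and of the second row of the ARNTL gene, with its 95% interval (line); filled points passed an adjusted p of 0.05 and red ticks are the estimates with 1 library left out. ARNTL and NPAS2 lie to the right at 1.61 and 2.95, PER2 and PER3 to the left at -1.82 and -1.71, and the ticks of PER1 lie on both sides of 0.

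How many members passed depended on which library was omitted. Omitting Yorkshire replicate 1, 2 or 3 left 3, 0 and 2 members, where 2.07%, 0.438% and 1.25% of all genes passed. Omitting Wei replicate 1, 2 or 3 left 3, 4 and 3 members, where 1.58%, 2.87% and 1.81% of all genes passed. DESeq2 called 6 members, 4 higher (adding CLOCK and CIART) and 2 lower, and 9.77% of all genes.

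Levels can be compared between genes only per length, which the deposited FPKM values allow. In Yorkshire muscle CRY2 stood highest at 33.3 ± 3.26 FPKM (SD, n = 3), followed by PER1 at 23.7 ± 3.03, CIART at 10.7 ± 3.68 and CLOCK at 10.6 ± 1.78. PER3 (4.88 ± 0.855), CRY1 (4.26 ± 0.866) and PER2 (4.09 ± 0.917) formed a middle group, above ARNTL (1.74 ± 0.673) and NPAS2 (0.464 ± 0.198). Neighbours in this order whose libraries overlapped were CIART and CLOCK, PER3 and CRY1, and CRY1 and PER2. ARNTL and NPAS2 were thus the lowest of the 9 in Yorkshire.

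In Wei muscle the order was CIART (24.4 ± 10.1 FPKM), PER1 (19.6 ± 7.74), CRY2 (18.1 ± 12.3), CLOCK (14.9 ± 1.47), CRY1 (5.90 ± 0.597), ARNTL (5.30 ± 0.654), NPAS2 (3.76 ± 2.81), PER3 (1.44 ± 0.289) and PER2 (1.11 ± 0.539). All neighbours overlapped except CLOCK and CRY1. ARNTL stood at place 8 in Yorkshire and 6 in Wei and NPAS2 at 9 and 7, while PER3 stood at 5 and 8 and PER2 at 7 and 9. The gene lengths that the deposited counts and FPKM imply run from 1.16 kb (CIART) to 6.95 kb (PER1), and the order rests on these lengths. Scaling by TMM in place of the deposited FPKM gave the same order in both breeds. That scaling uses the same implied lengths and cannot change the order within a library, so it does not test the order. These levels, and the ratios below, use the named ARNTL row alone. The second row of the gene stood at 7.53 ± 1.04 FPKM in Wei, above CRY1, and at 2.21 ± 0.62 in Yorkshire. The order of ARNTL and CRY1 in Wei thus depends on the row used.

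**Figure D3:**
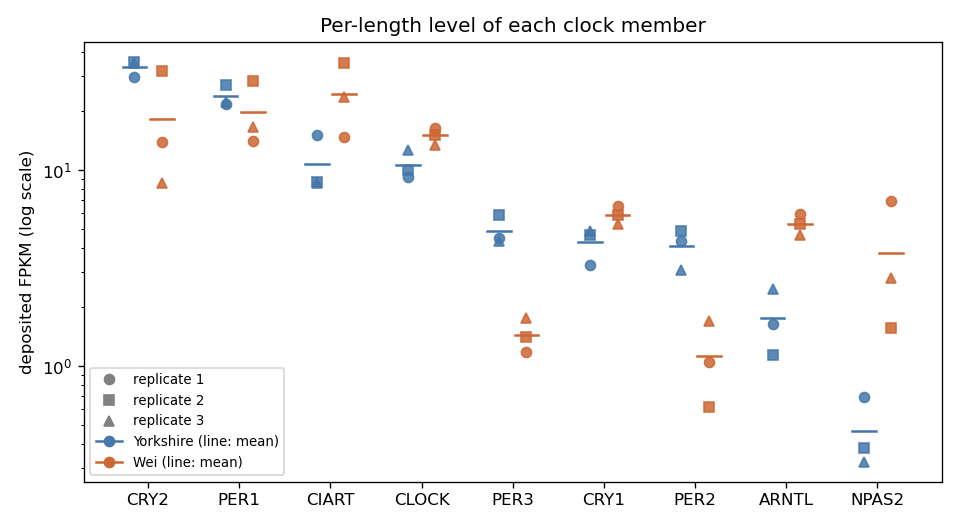
Deposited FPKM (vertical axis, log scale) of the 9 clock members in each library, ordered by the Yorkshire mean; short lines are breed means and marker shape gives the replicate. CLOCK, PER3, CRY1, PER2, ARNTL and NPAS2 show separate Yorkshire and Wei libraries, and CRY2, PER1 and CIART on the left do not.

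Ratios of paralogues within a library do not depend on the scaling between libraries. NPAS2 made up 6.98%, 3.67% and 2.51% of the summed FPKM of NPAS2 and CLOCK in Yorkshire and 29.8%, 9.39% and 17.3% in Wei. CLOCK was thus the more abundant partner of ARNTL in all 6 libraries. PER2 and PER3 together made up 29.0%, 28.3% and 24.9% of the summed FPKM of the 3 PER genes in Yorkshire and 13.7%, 6.62% and 17.2% in Wei, so that PER1 was the bulk of PER transcript in each library. CRY1 made up 9.95%, 11.7% and 12.1% of the summed FPKM of CRY1 and CRY2 in Yorkshire and 32.1%, 15.6% and 38.3% in Wei. For each of the 3 shares the breeds did not overlap. Wei replicate 2 was the Wei library nearest to Yorkshire for NPAS2 and CRY1 and the farthest from it for PER2 and PER3.

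The log2 ratio of NPAS2 over CLOCK was -2.26 ± 1.02 in Wei and -4.58 ± 0.78 in Yorkshire, and that of CRY1 over CRY2 -1.40 ± 0.92 and -2.98 ± 0.17 (SD, n = 3; 2-sided exact permutation test, p = 0.10 for each). The ratio of PER2 over PER1 was -4.19 ± 1.18 in Wei and -2.55 ± 0.28 in Yorkshire, and that of PER3 over PER1 -3.72 ± 0.57 and -2.28 ± 0.08 (exact permutation p = 0.10 for each). ARNTL over PER2 differed most between the breeds among the 6 ratios. The ratio of ARNTL over PER2 was 2.52, 3.10 and 1.46 in Wei replicates 1 to 3 and -1.41, -2.10 and -0.32 in Yorkshire replicates 1 to 3. ARNTL was the more abundant per length in every Wei library and PER2 in every Yorkshire library, a difference of 3.64 on the log2 scale. ARNTL over CRY1 differed by 1.18. Without Wei replicate 2, where PER2 over PER1 was -5.52, the breeds differed by -0.97 in PER2 over PER1 in place of -1.63. In the same 5 libraries PER3 over PER1 differed by -1.12 in place of -1.43, CRY1 over CRY2 by 2.10 in place of 1.58, NPAS2 over CLOCK by 2.83 in place of 2.32, ARNTL over PER2 by 3.27 and ARNTL over CRY1 by 1.18. All 6 ratios computed had an exact permutation p of 0.10, also after Benjamini-Hochberg adjustment, which is the smallest that 3 against 3 libraries allow, so none could pass 0.05.

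**Figure D4:**
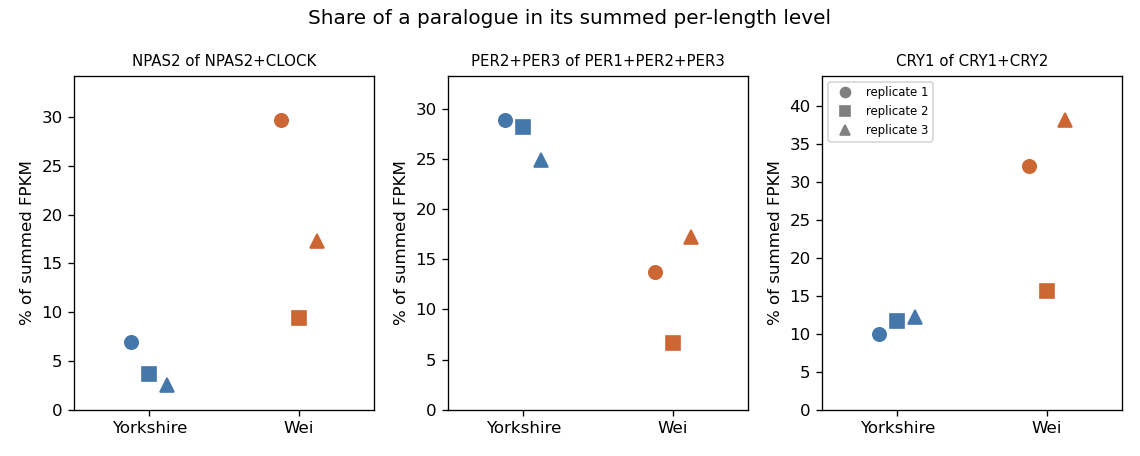
Share of NPAS2 in NPAS2 and CLOCK, of PER2 and PER3 in all 3 PER genes, and of CRY1 in CRY1 and CRY2, in percent of summed deposited FPKM (vertical axes, from 0) for each library; marker shape gives the replicate. In each panel the 3 Wei libraries lie on one side of the 3 Yorkshire libraries, and the Wei libraries are the more spread.

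Other parts of the loop were read from lists of clock genes outside the 9 members. Of 11 tested loop partners, 1 passed edgeR's quasi-likelihood test, BHLHE41, an E-box repressor also called DEC2, which rose by 1.55 ± 0.33 on the log2 scale (adjusted p = 0.0364), with 40.1, 24.7 and 21.9 CPM in Yorkshire and 118, 51.7 and 84.2 CPM in Wei. It passed in 2 of the 6 fits that left out a library. The list had a median of 0.28 on the log2 scale, against -0.02 over all genes tested. NR1D1 and DBP were singled out for their roles after the values were seen. NR1D1, the REV-ERB alpha repressor of ARNTL, stood at 6.33, 1.22 and 3.17 CPM in Yorkshire and 17.7, 8.78 and 18.3 CPM in Wei (log2 fold change 2.04 ± 0.51, edgeR's quasi-likelihood adjusted p = 0.0571). DBP, an E-box output factor, was estimated at -0.80 ± 0.50 (edgeR's quasi-likelihood adjusted p = 0.372), with overlapping breeds. DESeq2 called 4 of the 11 partners, against 9.77% of all genes, and limma voom called 2.

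**Figure D5:**
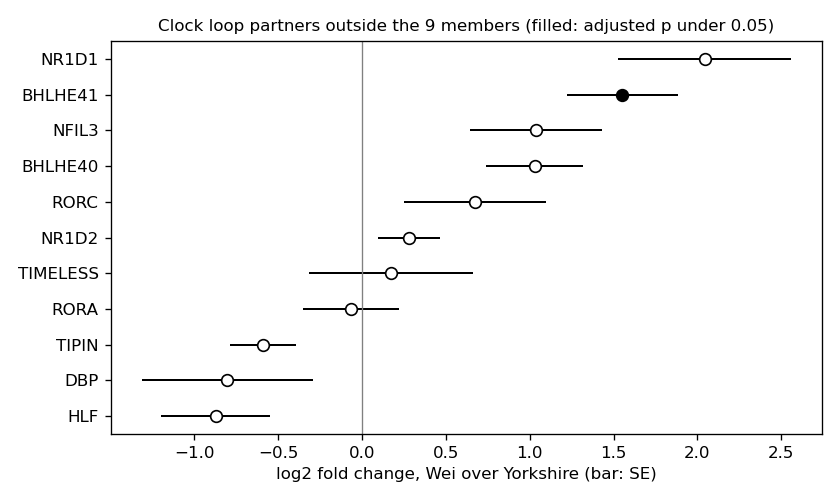
Log2 fold change, Wei over Yorkshire (horizontal axis), of the 11 tested clock loop partners, with bars of 1 SE; the filled point passed an adjusted p of 0.05. BHLHE41 at 1.55 is the filled one, NR1D1 at 2.04 has the highest estimate and HLF at -0.87 the lowest.

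Of 20 tested kinases, phosphatases, ubiquitin ligases and deubiquitinases that act on PER and CRY proteins, 1 passed. USP7, a deubiquitinase that stabilises CRY1, rose by 0.63 ± 0.11 on the log2 scale (edgeR's quasi-likelihood test, adjusted p = 0.0249), from 136, 139 and 138 CPM in Yorkshire to 222, 212 and 205 CPM in Wei. The casein kinases CSNK1D (log2 fold change 0.06 ± 0.18) and CSNK1E (-0.13 ± 0.15), which phosphorylate PER, were singled out for this role after the values were seen and did not pass. The median of this list was 0.01.

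Of 21 tested cofactors of the activator and repressor complexes, 1 passed. NONO, an RNA-binding protein found with PER, fell by 0.55 on the log2 scale (SE 0.11; edgeR's quasi-likelihood test, adjusted p = 0.0356), from 63.0, 58.3 and 64.1 CPM in Yorkshire to 41.7, 42.3 and 43.0 CPM in Wei. The list median was 0.07. Of 11 further E-box targets, 1 passed, NAMPT, the rate-limiting enzyme of NAD salvage, which rose by 1.0 ± 0.21 on the log2 scale (edgeR's quasi-likelihood test, adjusted p = 0.0363). NAMPT stood at 156, 253 and 260 CPM in Yorkshire and 388, 469 and 482 CPM in Wei, and the list median was 0.24. USP7, NONO and NAMPT passed in 0 of the 6 fits that left out a library. The count of 1 gene in each of these 4 lists is read against the 5.08% of all genes that passed, and nothing particular to the lists follows from it. CPM values of the breeds did not overlap for 5 of 11 loop partners and 4 of 20 genes acting on PER and CRY proteins. The same held for 8 of 21 cofactors and 7 of 11 E-box targets, against 29.6% of all genes. No test of the lists as sets was run.

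Among 17 tested inducers of PER1 and PER2, which carry glucocorticoid, cyclic AMP and stress signals, 0 passed edgeR's quasi-likelihood test, 3 had an unadjusted p under 0.05, and DESeq2 called 1 and limma voom 0. Counts at an unadjusted p under 0.05, here and below, come without the share of all genes at that cut-off. The list's median log2 fold change was 0.27. FOS and KLF9, an immediate early gene and a glucocorticoid target, had the highest mean CPM of the list. FOS stood at 511, 56.0 and 140 CPM in Yorkshire and 327, 407 and 109 CPM in Wei, and KLF9 at 50.4, 110 and 119 CPM in Yorkshire and 103, 324 and 108 CPM in Wei. Both overlapped between the breeds. The 17 genes summed to 1494 CPM in Wei replicate 2, the library with the highest PER1 and CIART, and to between 562 and 1032 CPM in the other 5 libraries. The part of these signals in the PER1 and CIART values of Wei replicate 2 was not tested.

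The genes closest to ARNTL in pattern over the libraries were sought by the root mean square difference of log2 CPM, centred over the 6 libraries, among 6697 other genes with a symbol and an average log2 CPM of at least 2. The second row of the ARNTL gene, at 0.15, was closer than every one of them. The next were LPCAT3 and KIAA1217 (0.25 each), and RASGEF1B, IL6R and ACTR3B (0.28 each). For PER2 the closest were ARMCX6 (0.30), NCALD (0.37), IGSF3 (0.40), FGFR4 (0.41) and RET (0.42). The distance is taken over 6 libraries of both breeds, so the difference between breeds enters it.

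Fewer cells of a type and less RNA per cell cannot be told apart in whole muscle. Some marker lists of other cell types did not overlap between the breeds in summed level. The 4 tested lymphocyte markers (PTPRC, CD3E, CD2 and LCK) summed to between 9.03 and 36.1 CPM in Yorkshire and between 5.98 and 6.90 CPM in Wei, and the 4 fibroblast markers (COL3A1, PDGFRA, DCN and LUM) to between 1678 and 2810 CPM and between 450 and 1281 CPM, with 0 of either list past the threshold of edgeR's quasi-likelihood test, 4 and 2 at an unadjusted p under 0.05, 2 and 2 called by DESeq2 and 0 and 0 by limma voom. COL3A1 carried the separation of the fibroblast sum, with 1379 to 2351 CPM in Yorkshire and 220 to 887 CPM in Wei, and each of the other 3 overlapped, as did their sum (299 to 459 CPM in Yorkshire, 231 to 394 CPM in Wei). Of 4 tested adipocyte markers PLIN4 rose (0.70 ± 0.14, edgeR's quasi-likelihood adjusted p = 0.0336), while LEP, which did not pass the filter, had 5 counts over the 6 libraries, and the tested adipocyte markers summed to between 272 and 324 CPM in Yorkshire and between 449 and 475 CPM in Wei. That sum was nearly all PLIN4, and PLIN1, CIDEC and LIPE each overlapped between the breeds and summed to 15.5 to 22.1 CPM in Yorkshire and 11.1 to 41.3 CPM in Wei. The endothelial, macrophage, smooth muscle and Schwann cell lists overlapped between the breeds in summed level and had 0 genes past the threshold of edgeR's quasi-likelihood test, DESeq2 or limma voom, with 1 endothelial and 1 smooth muscle gene at an unadjusted p under 0.05. The part of these cells in the differences of the clock genes was not tested.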

How the data were processed

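RNA-seq of loin muscle gave 6 libraries, 3 for each breed, grouped by the breed label. The authors deposited a read count and an FPKM value (read abundance scaled to gene length and library size) for each gene and library, per the file headers. Per the submitters' processing notes, which state neither role nor order, the build was Sscrofa10.2 and the tools included TopHat2 2.0.9, CASAVA 1.7 and edgeR. Which counter, annotation and strand setting were used is not given in the sources used here. No member overlapped another gene in the table. Within a breed the libraries differed beyond counting noise, and each was counted as 1 replicate. This difference does not show that they came from separate animals.

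From the deposited counts, low genes were removed (filterByExpr, minimum count 10). TMM factors and the quasi-likelihood test (glmQLFTest after glmQLFit) came from edgeR 4.0.16 in R 4.3.3, with breed the only term. P-values were adjusted by Benjamini-Hochberg over the 13209 genes tested, with a threshold of 0.05. The SE is the log2 fold change over the square root of F. The step was run on simulated counts that gave every gene the same dispersion. It therefore does not cover genes that vary more than most within a breed. Poisson intervals are exact at 95% and cover counting error only. Ratios of FPKM within a library were compared by exact permutation. Likeness used log2 CPM with a prior count of 2.

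The 9 members, the partner lists and the markers were chosen with earlier results of these data known. All members are named. Of each partner list, the genes that passed are named, or the 2 with the highest mean CPM where none passed. Genes without a symbol were named from a table of gene IDs, which matched 1774 of 9160. Alternatives were RLE size factors, library size alone, other filters, DESeq2 1.42.0, limma 3.58.1 (voom), an adjusted p of 0.01, the replicate number as a block, leaving out each library, and TMM levels per length. PER2 left out and the ARNTL rows summed were chosen after seeing the data. Figures were drawn with matplotlib 3.10.9.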

Additional observations from a re-analysis of the deposited data

How the results depend on the processing

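Of 9 clock members, 4 passed (2 higher, 2 lower in Wei) with RLE size factors, library size alone, no filter, a filter of 1 CPM and limma voom, as with the settings of the report. DESeq2 called 4 members higher, and 1291 genes in all, 713 higher and 578 lower. At an adjusted p of 0.01, 0 members passed edgeR's quasi-likelihood test (0 higher, 0 lower), and 52 genes in all, 33 higher and 19 lower. In the same test 7 members had an unadjusted p under 0.05. The share of all genes at that unadjusted cut-off is not given, so nothing particular to the members is read from this count. Leaving out 1 library at a time gave 0 to 4 members, 0 to 2 higher and 0 to 2 lower, and 60 to 394 genes in all. Of these genes 37 to 259 were higher, 37 to 151 in the fits that moved this count by over 1.5 times, and 23 to 135 were lower. The fewest of each came without Yorkshire replicate 2. PER1 ran from -0.60 to 0.019 on the log2 scale, changing sign without Wei replicate 1. By the symbols of the deposited table alone, which leaves out PER2, 1 member was lower. No other member changed sign in any fit. The cause of these changes was not tested.

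No strong pairing of the libraries by replicate number was seen: the correlations between deviations were 0.14, -0.0066 and 0.022 for numbers 1 to 3. Whether libraries of the same number shared a batch is not known. With the replicate block, 1 member was lower (PER3) and 477 genes passed, and PER2 was at -1.90 on the log2 scale (edgeR's quasi-likelihood adjusted p = 0.0622). ARNTL and NPAS2 rest on few Yorkshire reads, 26 to 100 in a library, which limits the precision of their folds.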
